A study of Homo sapiens with 9 samples.

Results

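The ACTH receptor gene MC2R and 9 genes that act behind it in cyclic AMP and protein kinase A signalling were followed in H295R cells. H295R is a steroid-producing human line from an adrenocortical carcinoma. The 10 genes were taken by symbol, matched to their Ensembl identifiers, from 60671 genes in the count files, and all 10 were among the 14150 genes with enough counts to test. They are the receptor MC2R, the adenylyl cyclase ADCY3, the kinase subunits PRKACA, PRKAR1A, PRKAR2A and PRKAR2B, the anchoring protein AKAP12, the phosphodiesterases PDE4D and PDE2A, and the transcription factor CREM.

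The libraries fell into 3 groups of 3: cells with SGPL1 knocked out (KO), cells labelled as overexpressing SGPL1 (OE), and H295R cells of wild-type genotype (WT). SGPL1 is the lyase that breaks down sphingosine-1-phosphate, and the comparison asks what its loss or its stated excess does to the transcriptome. All 3 groups were grown in the same medium with NuSerum and an insulin-transferrin-selenium premix to 80% confluency, and were left untreated, so ACTH or a cAMP agonist is named for none of them. The labels name neither the kind of edit nor the construct, nor whether a group is 1 clone or a pool. The design text calls the libraries biological replicates without saying that they were separate cultures, and the p-values cover only the spread among them.

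ACTH binds the melanocortin-2 receptor on adrenocortical cells, which couples through the stimulatory G protein to adenylyl cyclases that make cAMP. cAMP releases the catalytic subunits of protein kinase A (PKA) from its regulatory subunits, anchoring proteins place the enzyme in the cell, and phosphodiesterases break cAMP down. Free catalytic subunits phosphorylate CREB-family factors, which bind the cAMP response element (CRE) and turn on genes of steroid synthesis.

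The palindromic CRE, TGACGTCA, which reads the same on both strands, was searched in RefSeq promoter windows of 300 bases, from 250 bases before to 50 bases after each annotated start (GRCh38.p14). It was found at 2 of the 10 genes, CREM and PRKAR1A, against 614 of 27305 genes with a window (2.25%). Each of the 2 elements lies in 2 overlapping windows, which makes 4 of the 32 windows of the set (12.5%), against 649 of all 35116 windows (1.85%). The 2 stretches are shown because CREM is the gene of the set that was higher than in WT in both other groups, and PRKAR1A is 1 of the regulatory subunit genes that were higher in KO than in WT. Each is on the + strand, 5′ to 3′, with the element in capitals, at chr10:35195841-35195870 for CREM and chr17:68512370-68512399 for PRKAR1A.
CREM: gagctgcacatTGACGTCAgctccgagtca
PRKAR1A: gcgaggcgcatTGACGTCAgtagccgaacg
In CREM the element begins 2 bases after 1 RefSeq start and 50 bases before another. In PRKAR1A it begins 2 bases after 1 start and 49 bases before another. A match is a description of these letters, and binding at either stretch was not measured.

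Library totals ran from 8006873 to 10895080 counts. SGPL1 itself had 47.2, 43.9 and 53.8 CPM, the count scaled to library size, in KO libraries, 98.1, 81.3 and 101.2 CPM in the libraries labelled OE, and 101.5, 83.4 and 98.1 CPM in WT libraries. It was lower in KO than in WT (log2 fold change -0.97 ± 0.14 SE, edgeR adjusted p = 0.000105), and KO kept 51.2% of the WT level, while OE-labelled and WT libraries differed by -0.01 (95% interval -0.30 to 0.28, edgeR adjusted p = 0.966). The counts thus do not show the excess that the OE label states. The construct is not named, so whether its transcripts would be counted under SGPL1 cannot be said. The group is called by its label throughout, and a direction given for it is that of the libraries so labelled. All 10 adrenocortical marker genes were tested, and their summed level was 2205 to 2608 CPM in KO, 2289 to 2708 CPM in the OE-labelled libraries and 1763 to 1970 CPM in WT. The chromaffin markers TH, DBH, PNMT and SLC18A1, the leukocyte markers PTPRC and CD3E and the keratin genes KRT5 and KRT14 had no count in any library. EPCAM, an epithelial marker with at most 293 counts, led a list whose summed level was 10.5 to 12.9 CPM in KO, 27.6 to 32.0 CPM in OE-labelled and 23.9 to 28.4 CPM in WT libraries, and its part in the results below was not tested. For each library, log2 CPM less the gene's mean over the 3 groups was regressed on log2 gene length. The slope of this difference was 0.04 to 0.13 in KO, -0.20 to -0.07 in OE-labelled and -0.05 to 0.10 in WT libraries. Values with a length offset are therefore given beside called results that it moves by over 1.5 times.

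Of the 10 genes, 4 were higher and 0 lower in KO than in WT (PRKACA, PRKAR1A, PRKAR2B and CREM), where 9.16% of all genes tested were higher and 9.6% lower. In the OE-labelled libraries 2 were higher (CREM and PDE2A) and 3 lower (ADCY3, AKAP12 and PDE4D) than in WT, where 9.65% of all genes were higher and 11% lower. Set against each other, 6 genes were higher and 0 lower in KO than in the OE-labelled libraries (ADCY3, PRKACA, PRKAR1A, PRKAR2A, AKAP12 and PDE4D), where 20.6% of all genes were higher and 19% lower. In either direction the shares called were 40% of the 10 against 18.8% of all genes for KO against WT, 50% against 20.7% for OE against WT, and 60% against 39.7% for KO against OE. The comparisons with WT share the 3 WT libraries and are not independent of each other. The median log2 fold change of the 10 was 0.31, -0.25 and 0.53 for these comparisons, while the median of all genes lay within 0.01 of 0 in each. The sets of 3 libraries did not overlap for 6, 8 and 8 of the 10 genes, against 35.2%, 36.4% and 51.7% of all genes tested. KO against WT gave 1 called gene of the 10 without KO replicate 2, WT replicate 1 or WT replicate 2, and 2 without KO replicate 3 or OE replicate 1. OE against WT gave 3 without WT replicate 1 or WT replicate 3. Among called genes of the whole table, the share that was higher in OE-labelled libraries was 46.7%, and it was 25.9% when only library totals were used for scaling, which moved the median of all genes to -0.13, and 61.1% with the length offset.

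**Figure D1:**
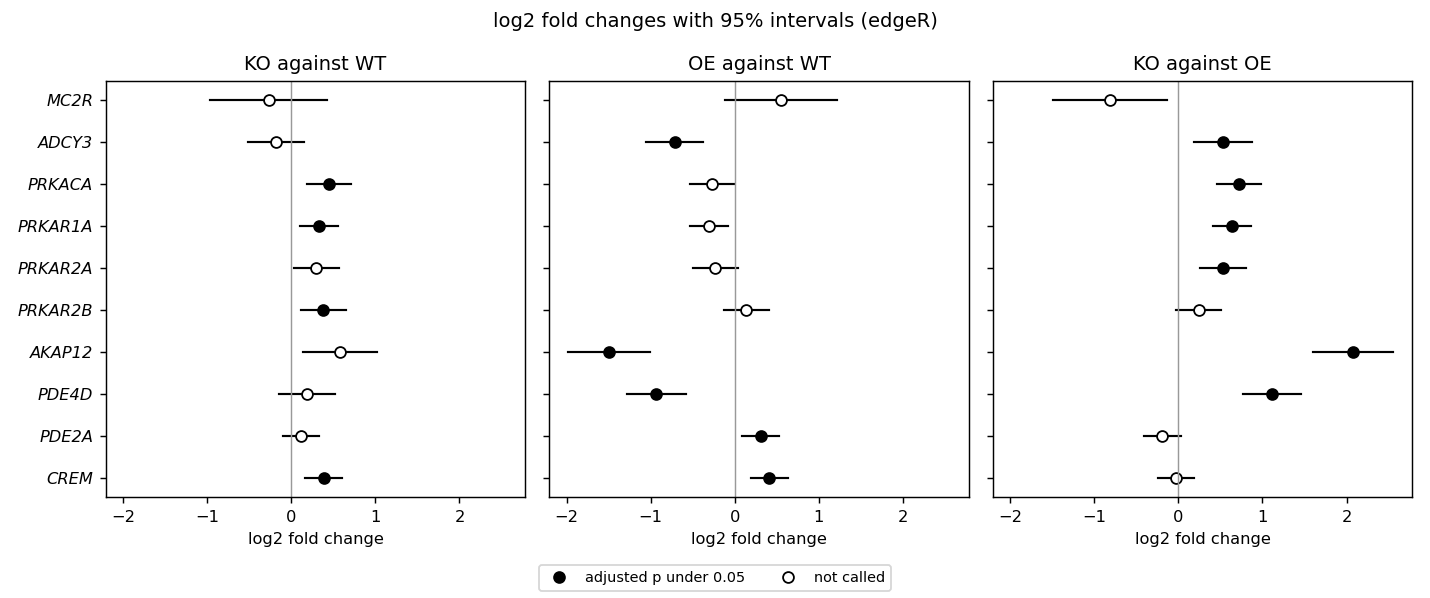
Log2 fold changes of the 10 genes with 95% intervals from the edgeR fit, for KO against WT, OE against WT and KO against OE; 0 marks no difference. Filled points have an adjusted p under 0.05. AKAP12 lies farthest from 0 in OE-labelled against WT libraries (-1.50) and in KO against OE (2.08).

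MC2R, the ACTH receptor (ENSG00000185231, chr18:13882044-13915707), was the lowest of the 10 genes in KO and WT on a per-length scale, and few reads covered it. It had 22, 44 and 23 counts in KO libraries (2.57, 4.76 and 2.46 CPM), 44, 48 and 62 counts in OE-labelled libraries (4.84, 6.64 and 5.83 CPM), and 29, 39 and 33 counts in WT libraries (3.28, 4.77 and 3.80 CPM). All 3 OE-labelled libraries lay above KO and WT, the lowest of them only just, while KO and WT overlapped because KO replicate 2 was near the top of WT. MC2R did not pass the test in KO against WT (-0.27 ± 0.33, edgeR adjusted p = 0.634, 95% interval -0.96 to 0.43) or in OE-labelled against WT libraries (0.54 ± 0.32, edgeR adjusted p = 0.235, interval -0.12 to 1.21). KO against OE came to -0.81 ± 0.32 (edgeR adjusted p = 0.0521), and it passed in 7 of 19 alternatives, with -1.19 and an adjusted p of 0.0175 without KO replicate 2 and 0.0468 without WT replicate 2. In bulk RNA of this kind, fewer cells with the receptor and less receptor RNA per cell cannot be told apart. MRAP, the accessory protein that carries MC2R to the cell surface, had 0 to 5 counts per library, and its relative MRAP2 had 0 to 2, so neither could be tested.

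The 5 genes with the pattern most like that of MC2R over the 9 libraries were KCNK12, DECR2, RPL37, the pseudogene RPL24P8 and ANAPC15. Their root-mean-square difference from MC2R, each gene centred on its own mean log2 CPM, was 0.131 for KCNK12 and 0.178 for ANAPC15, against a median of 0.551 over all genes tested. Within the set PDE2A (0.422) and CREM (0.457) came closest to MC2R and AKAP12 (1.26) was farthest. RPL37 averaged 390.4 CPM in KO, 782.3 CPM in OE-labelled and 535.1 CPM in WT libraries, with reads that a ribosomal protein gene may share with its copies.

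**Figure D2:**
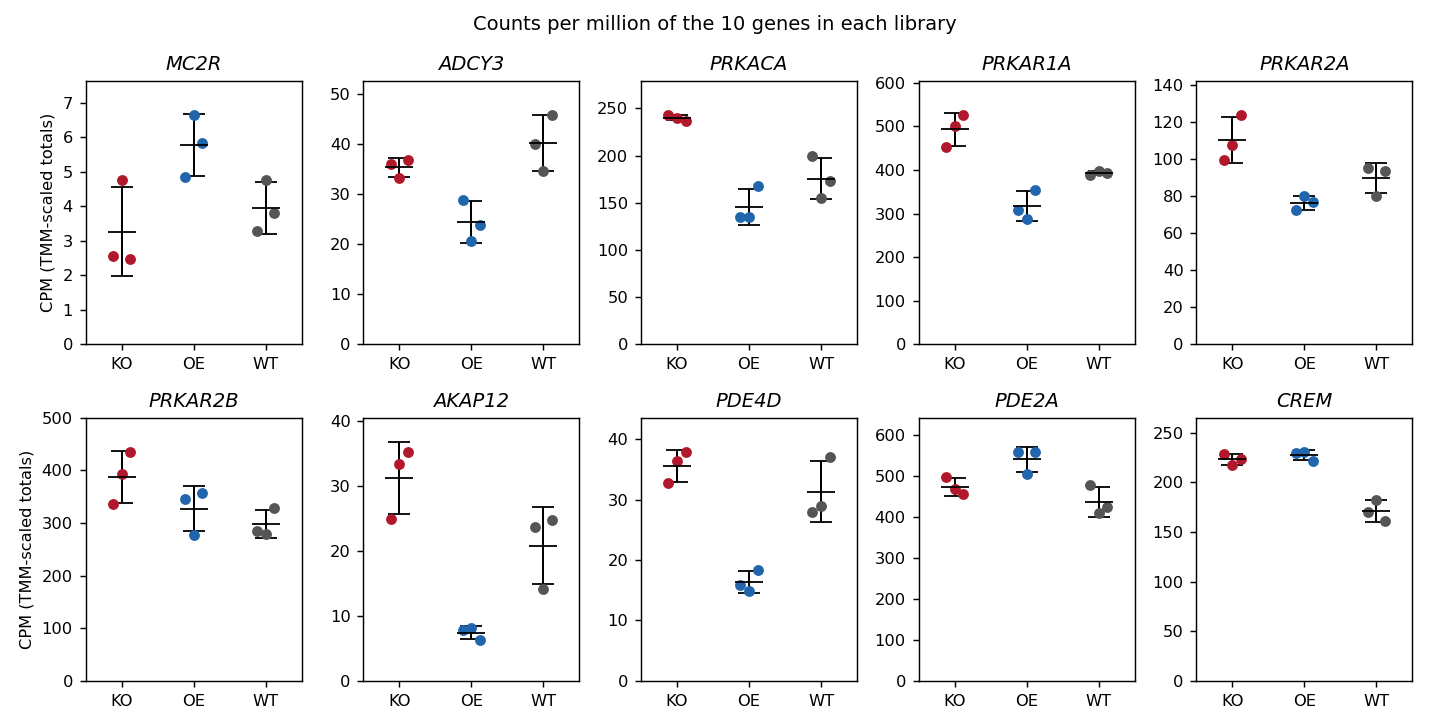
CPM of each of the 10 genes in every library, 1 panel per gene, on axes that start at 0, with KO, OE and WT from left to right; points are libraries and bars the mean and SD of 3. AKAP12 and PDE4D show all 3 OE-labelled libraries below the other 6, and CREM shows all 3 WT libraries below the other 6.

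Per kb of summed exon length, the order of the 10 genes was similar in the groups at the top and changed at the bottom. PRKAR2B came first with 91.0, 76.9 and 70.01 CPM per kb in KO, OE-labelled and WT libraries. PDE2A and PRKAR1A came next, with 65.9 and 72.3 CPM per kb in KO, 75.2 and 46.5 CPM per kb in OE-labelled and 60.8 and 57.6 CPM per kb in WT libraries. PDE2A overlapped PRKAR1A in KO and in WT, and it overlapped PRKAR2B in OE-labelled and WT libraries. CREM and PRKACA overlapped in KO (39.2 and 39.0 CPM per kb) and in WT (30.0 and 28.5), and in the OE-labelled libraries CREM (39.9) lay above PRKACA (23.6). PRKAR2A had 16.5, 11.4 and 13.4 CPM per kb and ADCY3 5.84, 4.03 and 6.63 in KO, OE-labelled and WT libraries, with no overlap with their neighbours in the order. The lowest 3 were AKAP12, PDE4D and MC2R in KO (3.55, 2.19 and 0.874) and in WT (2.37, 1.93 and 1.06), and AKAP12 and PDE4D overlapped in WT. In the OE-labelled libraries MC2R (1.55) stood above PDE4D (1.01) and AKAP12 (0.846), which overlapped each other. The length of a gene is here the union of its isoforms' exons, 16236 nt for PDE4D, so the per-kb level of genes with many isoforms is on the low side.

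ADCY3 (ENSG00000138031, chr2:24819169-24919839) makes cAMP at the membrane downstream of the receptor. It had 36.0, 33.2 and 36.9 CPM in KO libraries, 28.8, 20.6 and 23.9 CPM in OE-labelled libraries, and 40.1, 34.6 and 45.8 CPM in WT libraries. The OE-labelled libraries lay below all others, and KO overlapped WT. It was lower in OE-labelled than in WT libraries (-0.71 ± 0.16, edgeR adjusted p = 0.00649), and this was called in all 19 alternatives, with values of -0.85 to -0.60. KO against WT was -0.18 ± 0.16 (edgeR adjusted p = 0.476, interval -0.52 to 0.15). KO was higher than OE-labelled by 0.53 ± 0.16 (edgeR adjusted p = 0.0157), which was not called without OE replicate 2 (adjusted p = 0.0752) or OE replicate 3 (0.0514). Of its exon bases, 26% are shared with other genes, so its counts are partial.

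PRKACA (ENSG00000072062, chr19:14091688-14118084) is the main catalytic subunit of PKA and is known to carry activating mutations in cortisol-producing adenomas. It had 242.6, 240.3 and 237.1 CPM in KO libraries, 134.7, 134.4 and 167.3 CPM in OE-labelled libraries, and 199.3, 155.2 and 172.5 CPM in WT libraries. KO lay above all other libraries with the least scatter, and the OE-labelled range ran into the lower WT range. PRKACA was higher in KO than in WT by 0.45 ± 0.12 (1.37-fold, edgeR adjusted p = 0.0173), a call lost without KO replicate 2 (adjusted p = 0.0615) or WT replicate 2 (0.0673). It did not pass in OE-labelled against WT libraries (-0.27 ± 0.12, edgeR adjusted p = 0.132, interval -0.53 to -0.01, or -0.15 with the length offset), except with library totals alone (adjusted p = 0.0423). KO exceeded OE-labelled by 0.72 ± 0.12 (1.65-fold, edgeR adjusted p = 0.000296), called in all 19 alternatives.

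PRKAR1A (ENSG00000108946, chr17:68511780-68551319), the type I regulatory subunit whose loss causes Carney complex, had its groups in the same order as PRKACA. It had 453.1, 500.6 and 525.5 CPM in KO libraries, 309.2, 287.5 and 353.9 CPM in OE-labelled libraries, and 388.0, 397.3 and 393.0 CPM in WT libraries. The groups were stacked without overlap, KO on top, WT between and OE-labelled lowest. KO exceeded OE-labelled by 0.64 ± 0.11 (1.56-fold, edgeR adjusted p = 0.00027) in all 19 alternatives. KO exceeded WT by 0.33 ± 0.11 (1.25-fold, edgeR adjusted p = 0.043), which was not called with upper-quartile scaling (0.0994) or library totals alone (0.107), or without KO replicate 2 (0.138), KO replicate 3 (0.151), OE replicate 1 (0.0519), WT replicate 1 (0.130), WT replicate 2 (0.0683) or WT replicate 3 (0.0874). OE-labelled libraries stood -0.31 ± 0.11 from WT (edgeR adjusted p = 0.0523), past the threshold with DESeq2 (0.0365), limma-voom (0.0484), library totals alone (0.0146) and without OE replicate 3 (0.042), and the length offset gave -0.16 (0.268).

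PRKAR2A (ENSG00000114302, chr3:48744597-48847874) and PRKAR2B (ENSG00000005249, chr7:107044705-107161811) encode type II regulatory subunits, which anchoring proteins hold at membranes. PRKAR2A had 99.2, 107.6 and 123.5 CPM in KO libraries, 72.2, 79.8 and 76.6 CPM in OE-labelled libraries, and 94.9, 80.2 and 93.5 CPM in WT libraries. Here too KO was on top and OE-labelled lowest, with no overlap, but the lowest WT library was within 1 CPM of the highest OE-labelled one. PRKAR2A was higher in KO than in OE-labelled libraries (0.53 ± 0.13, edgeR adjusted p = 0.00343) and was not called against WT in KO (0.30 ± 0.13, edgeR adjusted p = 0.115) or in OE-labelled libraries (-0.23 ± 0.13, edgeR adjusted p = 0.206, or -0.08 with the length offset).
PRKAR2B had 336.7, 392.6 and 435.0 CPM in KO libraries, 346.7, 278.2 and 358.1 CPM in OE-labelled libraries, and 285.7, 279.8 and 329.6 CPM in WT libraries. KO lay above WT, and the OE-labelled libraries overlapped both. PRKAR2B was higher in KO than in WT (0.38 ± 0.13, 1.30-fold, edgeR adjusted p = 0.047), a call that upper-quartile scaling (0.0885), median-of-ratios scaling (0.0521) and library totals alone (0.119) ended. Leaving out KO replicate 2 (0.134), KO replicate 3 (0.196), OE replicate 1 (0.053), OE replicate 3 (0.0555), WT replicate 1 (0.157) or WT replicate 2 (0.128) ended it too. It was not called in OE-labelled against WT libraries (0.14 ± 0.13, interval -0.13 to 0.41) or in KO against OE (0.24 ± 0.13, interval -0.03 to 0.51).

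The make-up of PKA at the RNA level was read from counts per kb within each library, which needs no scaling between libraries. Division by length does not take out a library's slope on gene length, which was lowest in the OE-labelled libraries (-0.204 to -0.075). PRKAR2B and PRKAR1B have 4262 and 4491 nt of exon, and PRKAR1A, PRKAR2A, PRKACA and PRKACB 6162 to 6821 nt. With the length offset, OE-labelled against WT was -0.16 for PRKAR1A, -0.15 for PRKACA and 0.13 for PRKAR2B. The part of the slope in the shares and the ratio was not tested. Among the 4 regulatory subunit genes, PRKAR2B held 46.1%, 47.7% and 49.1% in KO, 52.7%, 46.7% and 51.3% in OE-labelled, and 42.6%, 43.3% and 47.3% in WT libraries. PRKAR1A held 38.8%, 38.0% and 37.1% in KO, 29.4%, 30.2% and 31.7% in OE-labelled, and 36.1%, 38.4% and 35.2% in WT libraries. The PRKAR1A share of the OE-labelled libraries lay below both other groups, with a difference of -6.18 percentage points from WT (exact permutation p = 0.1, two-sided), while KO and WT overlapped (exact p = 0.3). With 3 libraries against 3 the smallest p that this test can give is 0.1, so no share can pass 0.05. PRKAR1B, a type I subunit best known from neurons, held 6.38%, 6.00% and 4.86% in KO, 10.9%, 14.6% and 9.95% in OE-labelled, and 12.3%, 10.4% and 8.85% in WT libraries. Its share in KO was below both other groups without overlap (exact p = 0.1 each). In the edgeR fit PRKAR1B was lower in KO than in WT (-0.60 ± 0.15, adjusted p = 0.00729) and than in OE-labelled libraries (-0.71 ± 0.15, adjusted p = 0.00107). Of the 30 tested genes nearest to it on the chromosome, 22 were lower in KO than in WT (median -0.22). Against the OE-labelled libraries 18 of them were lower (median -0.06). The part of the region in PRKAR1B was not tested.

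The type II share of the regulatory pool averaged 56.3% ± 1.63 in KO, 57.8% ± 2.29 in OE-labelled and 52.9% ± 2.61 in WT libraries (SD, n = 3 each), with overlap between all groups (exact permutation p = 0.2 for KO against WT and for OE against WT). The ratio of summed catalytic to summed regulatory counts per kb was 0.300, 0.279 and 0.254 in KO, 0.210, 0.220 and 0.233 in OE-labelled, and 0.280, 0.243 and 0.251 in WT libraries. The ratio was thus lowest in the OE-labelled libraries without overlap (exact p = 0.1 against each other group), and KO and WT overlapped (exact p = 0.3). Slopes on gene length were not taken out of this ratio. PRKACA made up 74.0% ± 2.43 of the PRKACA and PRKACB counts per kb in KO, 69.9% ± 2.15 in OE-labelled and 69.9% ± 2.92 in WT libraries. PRKACB, the other widely expressed catalytic subunit, did not pass in KO against WT (0.17 ± 0.13, edgeR adjusted p = 0.429) or in OE against WT (-0.26 ± 0.13, edgeR adjusted p = 0.171), and was higher in KO than in OE-labelled libraries (0.43 ± 0.13, edgeR adjusted p = 0.0162).

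**Figure D3:**
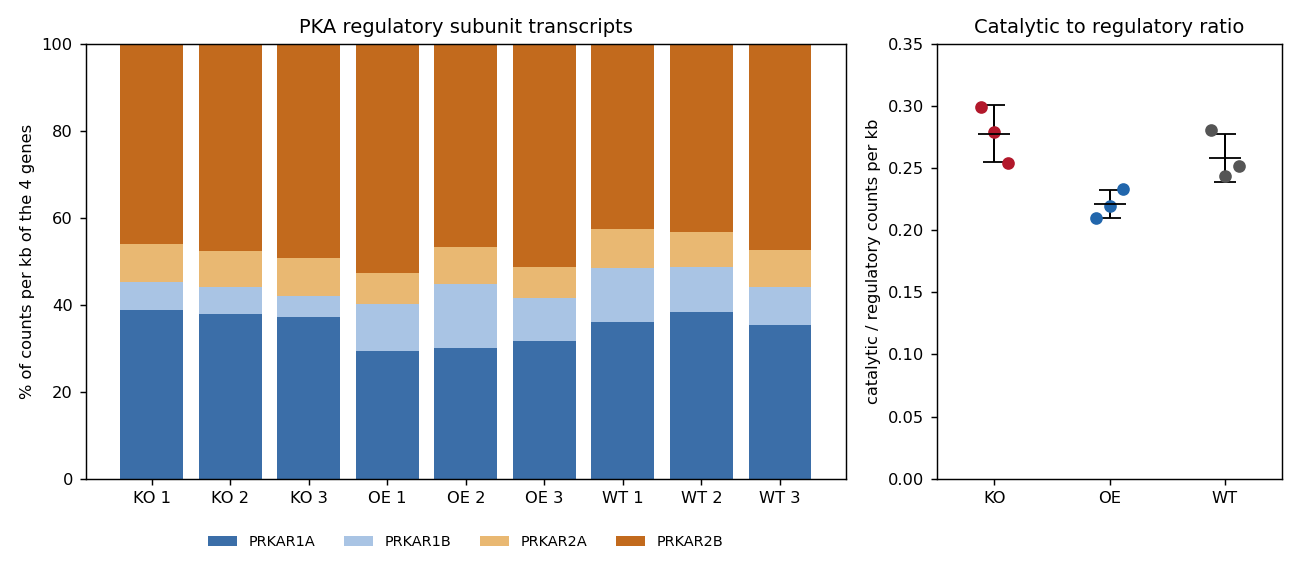
PKA subunit make-up in each library, from counts per kb, with KO, OE and WT from left to right: stacked percent of each regulatory subunit gene among the 4 (left), and the catalytic to regulatory ratio with mean and SD (right). PRKAR1A is near 30% in the OE-labelled libraries and near 37% in the others, and PRKAR1B is lowest in KO.

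AKAP12 (ENSG00000131016, chr6:151239967-151358559), also called gravin, anchors PKA together with protein kinase C and receptors at the membrane, and it had the widest range of the 10 genes. It had 24.9, 33.4 and 35.2 CPM in KO libraries, 7.81, 8.16 and 6.30 CPM in OE-labelled libraries, and 23.6, 14.1 and 24.7 CPM in WT libraries. The OE-labelled libraries lay far below the rest, and KO lay just above WT, the lowest KO library within 1 CPM of the highest WT library. AKAP12 was lower in OE-labelled than in WT libraries by -1.50 ± 0.23, to 35.5% of WT (edgeR adjusted p = 0.000552), and it was called in all 19 alternatives with values of -1.77 to -1.24. KO exceeded OE-labelled by 2.08 ± 0.23, or 4.22-fold (edgeR adjusted p = 4.99e-06). KO against WT was 0.58 ± 0.21 (edgeR adjusted p = 0.0628, interval 0.14 to 1.02), which passed in 7 of 19 alternatives, among them without KO replicate 1 (0.72, adjusted p = 0.0345), without OE replicate 2 (0.0474) and without WT replicate 3 (0.72, adjusted p = 0.0417). Of the 50 tested genes nearest to AKAP12 on chromosome 6, 0% changed as far or farther, in either direction, in OE-labelled against WT libraries. Their median was -0.15. For the other genes of the 10 called there this share was 18% (ADCY3), 2% (PDE4D), 64% (PDE2A) and 26% (CREM). For those called in KO against WT it was 32% (PRKACA), 44% (PRKAR1A), 40% (PRKAR2B) and 52% (CREM).

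PDE4D (ENSG00000113448, chr5:58969038-60522120) is a cAMP-specific phosphodiesterase that PKA itself can activate. It had 32.7, 36.3 and 37.9 CPM in KO libraries, 15.9, 14.8 and 18.3 CPM in OE-labelled libraries, and 27.9, 28.98 and 37.0 CPM in WT libraries. The OE-labelled libraries again lay below all 6 others, and KO overlapped WT. PDE4D was lower in OE-labelled than in WT libraries by -0.93 ± 0.16, to 52.4% of WT (edgeR adjusted p = 0.00148), and called in all 19 alternatives. With the length offset, which bears on the longest gene of the set, the difference was -0.49 ± 0.15 (edgeR adjusted p = 0.0254), more than 1.5 times smaller. KO exceeded OE-labelled by 1.12 ± 0.16 (2.17-fold, edgeR adjusted p = 7.3e-05) and by 0.61 with the length offset (adjusted p = 0.00298). KO against WT was 0.19 ± 0.16 (edgeR adjusted p = 0.47, interval -0.15 to 0.52).

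PDE2A (ENSG00000186642, chr11:72576141-72674591) hydrolyses cAMP and cGMP, is stimulated by cGMP, and in the adrenal zona glomerulosa is known as the step through which natriuretic peptide lowers aldosterone output. It had 496.9, 467.7 and 454.6 CPM in KO libraries, 557.6, 504.9 and 557.8 CPM in OE-labelled libraries, and 478.0, 408.6 and 423.8 CPM in WT libraries. The OE-labelled libraries lay above all others, and KO overlapped WT. PDE2A was thus the phosphodiesterase of the pair that was higher in OE-labelled than in WT libraries (0.31 ± 0.10, 1.24-fold, edgeR adjusted p = 0.0459), where PDE4D was lower. That call was near the threshold and was lost without KO replicate 1 (0.0571), 2 (0.0761) or 3 (0.0521), OE replicate 1 (0.105) or 3 (0.13), and WT replicate 1 (0.0577), 2 (0.0767) or 3 (0.15). It was also lost with library totals alone (0.19, adjusted p = 0.229), with no filter (0.0525) and with only these groups in the fit (0.0903), while the length offset gave 0.48 (adjusted p = 0.00185). PDE2A did not pass in KO against WT (0.12 ± 0.10, edgeR adjusted p = 0.499, interval -0.10 to 0.33) or in KO against OE (-0.19 ± 0.10, edgeR adjusted p = 0.154), but KO was lower than OE-labelled with the length offset (-0.35, adjusted p = 0.00691) and without OE replicate 2 and WT replicate 2 together (-0.26, adjusted p = 0.0254).

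CREM (ENSG00000095794, chr10:35126791-35212958) encodes activators and, from an internal promoter that cAMP induces, the repressor ICER, and gene counts do not separate them. It had 228.1, 217.5 and 224.0 CPM in KO libraries, 230.0, 230.5 and 221.7 CPM in OE-labelled libraries, and 169.8, 182.7 and 161.1 CPM in WT libraries. All 6 KO and OE-labelled libraries lay above all 3 WT libraries, and those 6 overlapped each other. CREM was higher than in WT by 0.38 ± 0.10 in KO (1.30-fold, edgeR adjusted p = 0.0156) and by 0.41 ± 0.10 in OE-labelled libraries (1.33-fold, edgeR adjusted p = 0.0117). Without WT replicate 1 (0.0619 and 0.0535 for KO and OE) or WT replicate 3 (0.0622 and 0.066) neither was called, and with library totals alone the OE-labelled call was lost (0.0554). KO against OE was -0.03 ± 0.10 (edgeR adjusted p = 0.862), with an interval of -0.24 to 0.19. The CRE printed above lies inside this gene, beside 2 of its internal RefSeq starts.

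**Figure D4:**
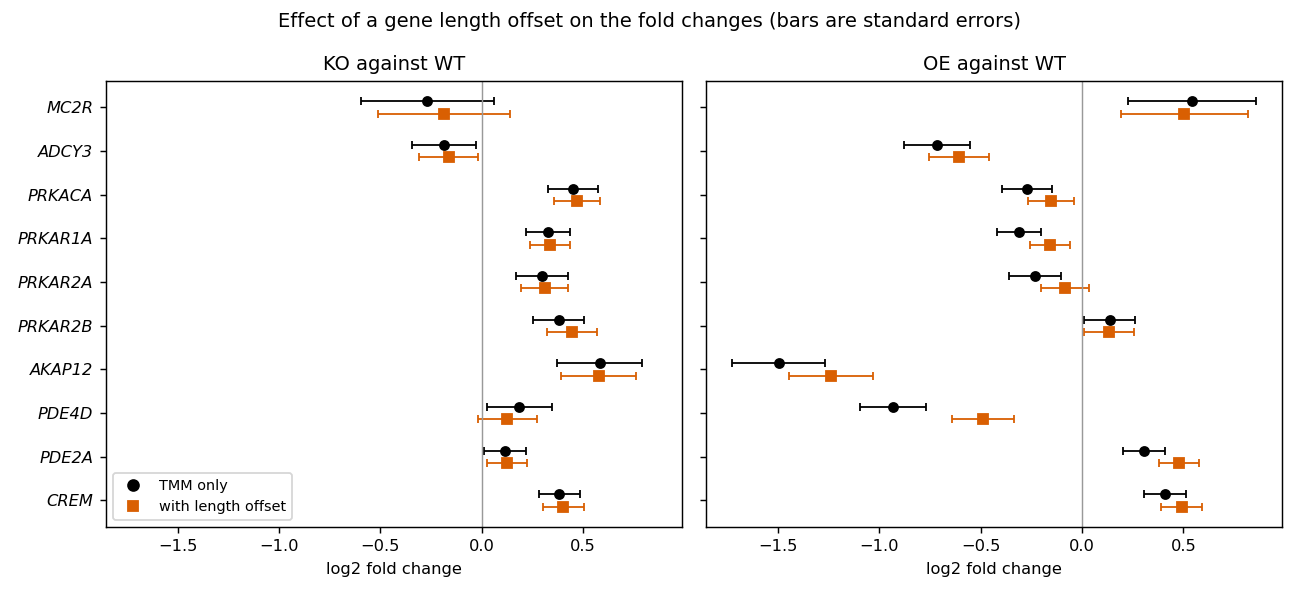
Log2 fold changes of the 10 genes without (circles) and with (squares) an offset for gene length, for KO against WT and OE against WT; bars are standard errors. The values of OE-labelled against WT libraries for PDE4D (-0.93 without and -0.49 with the offset), PRKAR1A (-0.31 and -0.16) and PDE2A (0.31 and 0.48) move upward, and those of KO against WT move little.

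The other genes of the pathway were described through 8 lists of 87 genes, of which 70 had enough counts to test. In KO against WT 7 were higher and 13 lower (28.6%, against 18.8% of all genes tested, median -0.07). In OE-labelled against WT libraries 6 were higher and 15 lower (30%, against 20.7% of all genes, median -0.31). KO against OE gave 21 higher and 11 lower (45.7%, against 39.7% of all genes, median 0.21). The balance moved with the scaling: the length offset gave 14 higher and 15 lower in KO against OE, and 8 higher and 10 lower in OE-labelled against WT libraries, where library totals alone gave 3 higher and 23 lower. The 21 calls in OE-labelled against WT libraries came down to 7 without WT replicate 1, 9 without WT replicate 3 and 12 without OE replicate 2.

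**Figure D5:**
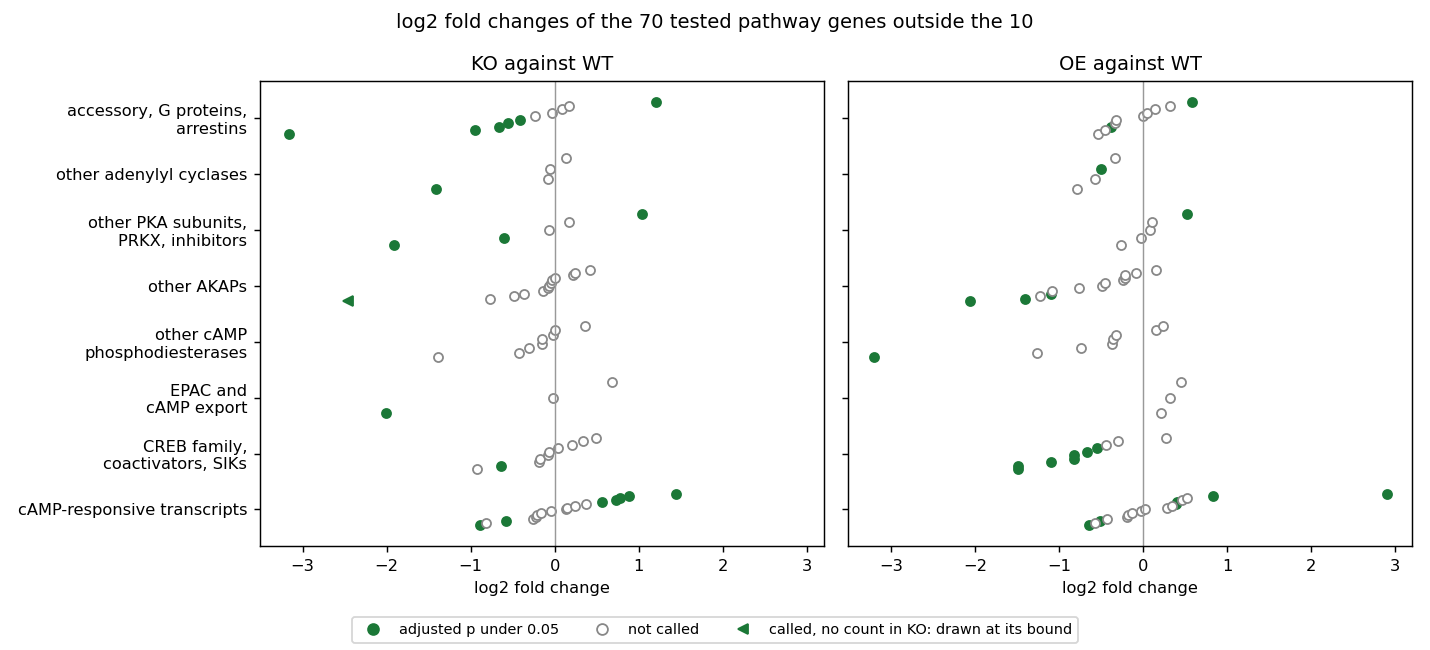
Log2 fold changes of the tested genes of the 8 pathway lists in KO against WT and OE against WT, 1 point per gene, with called genes filled; the triangle marks SPHKAP, drawn at its bound since KO had no count. CREB-family and coactivator genes lie mostly below 0 in OE-labelled against WT libraries.

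In KO, the G-protein and desensitization list had 1 gene higher and 5 lower of 10 tested, against 9.16% and 9.6% of all genes. GNAI1, an inhibitory alpha subunit that restrains adenylyl cyclase, averaged 135.1 ± 3.73 CPM in KO and 58.6 ± 5.42 CPM in WT (1.203 ± 0.13, edgeR adjusted p = 6.97e-06). Its relatives GNAI2 (-0.03 ± 0.10, edgeR adjusted p = 0.886) and GNAI3 (0.08 ± 0.11, edgeR adjusted p = 0.656) were not called. Per kb, GNAI1 had 5.58 CPM in KO and 2.42 in WT, GNAI2 81.2 and 82.8, and GNAI3 27.0 and 25.5. GNAS, the stimulatory alpha subunit that MC2R uses, averaged 981.2 ± 19.6 CPM in KO and 1312 ± 130.5 CPM in WT (-0.42 ± 0.10, edgeR adjusted p = 0.00716, or 0.0507 without WT replicate 1). The other alpha subunits called, GNAL (-0.95 ± 0.23, adjusted p = 0.00707), which stimulates cyclase, and GNAZ (-0.56 ± 0.13, adjusted p = 0.00534), which inhibits it, were also lower in edgeR. ARRB1, an arrestin that ends receptor signalling, had 5 counts over the KO libraries and 45 over the WT libraries (-3.16 ± 0.71, edgeR adjusted p = 0.00458). GNAL and ARRB1 share 29.2% and 25.8% of their exon bases with other genes. ABCC4, a pump that exports cAMP, was lower in KO as well (-2.01 ± 0.47, edgeR adjusted p = 0.00638).

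PKIA, the peptide inhibitor that binds free catalytic subunits, averaged 143.4 ± 13.5 CPM in KO and 69.9 ± 7.26 CPM in WT (1.04 ± 0.13, edgeR adjusted p = 3.15e-05). PRKX, a kinase related to PKA with a close copy in the genome, fell to 1.40 ± 0.19 CPM in KO, against 5.31 ± 0.59 CPM in WT (-1.92 ± 0.32, edgeR adjusted p = 0.000393). Of the other anchoring proteins 0 were higher and 1 lower of 13 tested, against 9.16% and 9.6% of all genes. That 1, SPHKAP, which binds type I PKA, had no count in KO and 48 counts in WT (24, 4 and 20 by library). Against the WT mean it was at least 5.52-fold lower, with a floor of 3 counts per library (edgeR adjusted p = 0.00147). WT replicate 2, with 4 counts, lay near that floor. None of the 8 other cAMP phosphodiesterases tested was called by edgeR in KO against WT, against 18.8% of all genes. The groups did not overlap for 3 of them, near the 35.2% of all genes.

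Among 17 cAMP-responsive transcripts, 5 were higher and 2 lower in KO than in WT, against 9.16% and 9.6% of all genes. The 5 were genes of cholesterol supply and steroid synthesis and the inhibin alpha chain. STAR, which brings cholesterol into mitochondria, averaged 543.1 ± 56.9 CPM in KO and 318.0 ± 19.7 CPM in WT (0.77 ± 0.11, edgeR adjusted p = 8e-05). SCARB1, the receptor for cholesterol uptake, averaged 1796 ± 124.3 CPM in KO and 1086 ± 116.6 CPM in WT (0.73 ± 0.11, edgeR adjusted p = 0.000201). HSD3B2, a steroid dehydrogenase with a close copy, INHA, the inhibin alpha chain, and FDX1, the electron donor of mitochondrial steroid enzymes, were higher by 0.88 ± 0.15, 1.44 ± 0.26 and 0.56 ± 0.14 (edgeR adjusted p = 0.000457, 0.00074 and 0.00719). NR4A3, an immediate-early nuclear receptor, was lower (33.5 ± 4.62 CPM in KO, 62.2 ± 15.7 CPM in WT; -0.89 ± 0.18, edgeR adjusted p = 0.00174), and its 50 neighbours on the chromosome had a median of -0.31. The other lower gene, DUSP1, stood at -0.58 ± 0.18 (edgeR adjusted p = 0.0323), and its 50 neighbours had a median of -0.90. Of these neighbours 48 were lower for DUSP1, and 43 for NR4A3. By calls the list did not move 1 way, but both lower genes lie where most neighbours were lower too. The part of the region in these 2 genes was not tested.

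In the OE-labelled libraries the largest share of calls was in the list of CREB factors, coactivators and salt-inducible kinases. Here 0 were higher and 7 lower of 10 (median -0.74), against 9.65% and 11% of all genes tested. The libraries of the groups did not overlap for 4 of the 10, against 36.4% of all genes. Among the 7 called lower, only CREBBP and SIK1 were without overlap, and the other genes without overlap were not called. EP300 and CRTC3 were among the called genes whose libraries overlapped. CREBBP, the histone acetyltransferase that CREB recruits, averaged 22.8 ± 6.26 CPM in OE-labelled and 64.4 ± 29.4 CPM in WT libraries (-1.49 ± 0.27, edgeR adjusted p = 0.00189), and its relative EP300 13.0 ± 3.97 and 28.0 ± 11.97 CPM (-1.10 ± 0.28, edgeR adjusted p = 0.0115). SIK1, a kinase that PKA switches off and that holds CREB coactivators in the cytoplasm, was lower by -1.48 ± 0.42 (edgeR adjusted p = 0.0202) on reads that a duplicate copy may share. The coactivator CRTC3 was lower by -0.54 ± 0.16 (edgeR adjusted p = 0.0226). With the length offset EP300 was at -0.73 (adjusted p = 0.0206). EP300 was not called without WT replicate 1 (0.0512) or WT replicate 3 (0.0749), SIK1 without OE replicate 1 (0.07) or WT replicate 1 (0.132). CRTC3 was not called without OE replicate 2 (0.0542), OE replicate 3 (0.0883), WT replicate 1 (0.133) or WT replicate 3 (0.0957), or with the length offset (-0.21, adjusted p = 0.291). CREBBP was called with the offset too, at -1.03 (adjusted p = 0.00164).

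Of 13 other anchoring proteins, 0 were higher and 3 lower in OE-labelled than in WT libraries, against 9.65% and 11% of all genes. AKAP9, at the Golgi and centrosome, averaged 8.71 ± 1.24 CPM in OE-labelled and 23.0 ± 9.83 CPM in WT libraries (-1.40 ± 0.27, edgeR adjusted p = 0.00272). AKAP13 averaged 23.1 ± 5.602 and 49.5 ± 14.4 CPM (-1.10 ± 0.22, edgeR adjusted p = 0.00309). With the length offset these differences were -0.89 for AKAP9 (adjusted p = 0.00756) and -0.59 for AKAP13 (0.0105). AKAP6, an anchor best known from muscle, averaged 1.01 ± 1.05 and 4.41 ± 1.18 CPM (-2.05 ± 0.57, edgeR adjusted p = 0.0186), and was not called without OE replicate 3 (0.0563) or WT replicate 1 (0.0899). PDE11A, a phosphodiesterase gene linked to adrenal hyperplasia, had 6 counts over the OE-labelled libraries and 55 over the WT libraries (-3.20 ± 0.76, edgeR adjusted p = 0.00852). These are counts of 1 of its 2 Ensembl entries. That entry shares 26.3% of its exon bases with the other entry and PDE11A-AS1, so its counts are partial.

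Other changes in OE-labelled against WT libraries ran both ways. HSD3B2 had the largest rise of the lists, to 102.8 ± 5.96 CPM, against 13.8 ± 0.80 CPM in WT (2.90 ± 0.15, edgeR adjusted p = 9.02e-09). SCARB1 (0.83 ± 0.11, edgeR adjusted p = 0.000252) and GNAI1 (0.58 ± 0.13, edgeR adjusted p = 0.00593) were higher, as was PKIG, a PKA inhibitor (0.52 ± 0.15, edgeR adjusted p = 0.0191). GNAI1 was at 1.097 with the length offset (adjusted p = 1.29e-05). PKIG was not called without OE replicate 2 (0.0629), WT replicate 1 (0.0811) or WT replicate 3 (0.0919), or with library totals alone (0.0566). GNAS was lower (-0.39 ± 0.10, edgeR adjusted p = 0.0135), a call lost without WT replicate 1 (0.0806) or WT replicate 3 (0.0596) and turned to 0.03 (0.877) by the length offset. The clock gene PER1, which has CREs, was lower (-0.65 ± 0.18, edgeR adjusted p = 0.0171), but not without WT replicate 1 (0.0985) or WT replicate 3 (0.0888). The cyclase ADCY6 was lower (-0.50 ± 0.15, edgeR adjusted p = 0.0277), but not without OE replicate 2 (0.118), OE replicate 3 (0.0986), WT replicate 1 (0.148) or WT replicate 3 (0.0668), with the length offset (0.148) or with only these groups in the fit (0.0508).

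In KO against OE, the direct test of the difference between the lines, PKIA was higher in KO (0.95 ± 0.13, edgeR adjusted p = 4.03e-05), as were EP300 (1.59 ± 0.28, 0.000301), CREBBP (1.42 ± 0.27, 0.000734), PER1 (0.89 ± 0.18, 0.000879) and NR4A1 (0.89 ± 0.16, 0.000378), an immediate-early nuclear receptor. CREBBP was higher by 0.94 with the length offset (0.00119). NR4A1 averaged 88.5 ± 7.93 CPM in KO and 47.8 ± 6.85 CPM in OE-labelled libraries. AKAP9 (1.32 ± 0.27, edgeR adjusted p = 0.00127) and AKAP13 (0.95 ± 0.22, edgeR adjusted p = 0.0026) were higher in KO, as AKAP12 was, and with the length offset by 0.77 (0.01) and 0.40 (0.0476). Of the 13 other anchoring proteins 6 were higher and 1 was lower, against 20.6% and 19% of all genes. That 1 was SPHKAP, at least 3.99-fold lower in KO against the floor of 3 counts per library. STAR was higher in KO (0.49 ± 0.11, edgeR adjusted p = 0.00186), and HSD3B2 was lower (-2.02 ± 0.14, edgeR adjusted p = 5.02e-08), at 25.4 ± 3.05 CPM in KO and 102.8 ± 5.96 CPM in OE-labelled libraries. PRKX (-1.90 ± 0.32, 0.000232), ARRB1 (-3.48 ± 0.69, 0.000912) and ABCC4 (-2.21 ± 0.47, 0.00136) were lower in KO by edgeR. GNAI1 was higher by 0.62 ± 0.13 (edgeR adjusted p = 0.00122), but by 0.04 with the length offset (0.819). Its summed exon length is 24192 nt.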

How the data were processed

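Polyadenylated RNA of 9 H295R libraries was sequenced, and the authors deposited raw read counts per gene, 1 file per library, with each gene's summed exon length. Per the file headers, counting was done with featureCounts 1.5.2 on Ensembl release 101 of GRCh38; the submitters' processing notes name HISAT2 1.03, Subread, featureCounts 0.1.0 and DESeq2, so the versions differ. The strand protocol was not given, so overlapping genes and close copies are uncertain.

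These counts went into edgeR 4.0.16 (R 4.3.3), scaled by TMM and filtered by filterByExpr at a minimum of 10 counts, and the quasi-likelihood test was run on 1 fit of all 9 libraries by group. This left 14150 genes with a common biological coefficient of variation of 0.15 on 6 residual degrees of freedom and a median standard error of 0.187 (log2). Adjustment was by Benjamini-Hochberg over those genes, with calls at 0.05. CPM are counts scaled by the TMM library size, computed from the deposited counts. Shares of PKA subunits were compared by two-sided exact permutation tests. No 2 libraries agreed within sampling noise, and the fit was tested on simulated data.

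Same-numbered libraries correlated between -0.138 and 0.246 in their deviations from the group means, and differently numbered ones between -0.281 and 0.224. No label states a pairing, so the numbers were not taken as pairs. DESeq2 1.42.0, limma-voom (limma 3.58.1), other scalings, no filter, a length offset, only the groups compared, and leaving out each library were the alternatives. The length offset was a loess per library, on log2 summed exon length, of log2 CPM less the gene's mean over the groups.

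The 10 genes and the 8 pathway lists were chosen with earlier results of these data known, so counts over them are descriptions. The text names all 10 genes, SGPL1, up to 15 called pathway genes per comparison in order of adjusted p, and also the 5 genes most like MC2R. PRKAR1B and PRKACB are named as parts of the PKA shares. GNAI2 and GNAI3 are named beside GNAI1, and DUSP1 beside NR4A3. Promoter sequences are RefSeq's for GRCh38.p14.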

Additional observations from a re-analysis of the deposited data

How the results depend on the processing

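The counts of calls and the log2 fold changes of the genes named by rule were recomputed under 19 alternatives (18 for SPHKAP), 1 of which (leaving out OE replicate 2 and WT replicate 2 together, the libraries of their groups with the lowest slope on gene length) was chosen after seeing the data. Of 190 values for the 10 genes in each comparison, the call and direction were kept by 162 in KO against WT, 170 in OE against WT and 178 in KO against OE; 1 was reversed, that of CREM in KO against OE (0.041 with library totals alone). The 4 genes called in KO against WT became 2 with upper-quartile scaling and 2 with library totals alone, and 1 to 5 when a replicate was left out. Leaving out a replicate gave 3 to 5 of the 10 genes in OE against WT, and 7 to 25 pathway genes. Over the whole table it gave 1764 to 3214 calls in KO against WT and 1244 to 3673 in OE against WT. SGPL1 in OE against WT, never called, became 0.003 with upper-quartile scaling, 0.008 with no filter, 0.176 with the length offset, 0.013 without OE 2 and WT 2 together, and -0.080 to 0.095 when a replicate was left out. GNAS in OE against WT became 0.029 with the length offset. The PKA shares and the ratio were recomputed only without division by gene length and without each replicate, and the order of levels and the genes most like MC2R were not recomputed. Without division by gene length, the type II share was 47.8% in KO, 50.4% in OE-labelled and 45.3% in WT libraries, and the catalytic to regulatory ratio 0.321, 0.267 and 0.301. The cause of these shifts was not tested.

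With the replicate number as a block, 3235, 3757 and 6135 genes were called in KO against WT, OE against WT and KO against OE, against 2655, 2924 and 5612 without it, and 5, 6 and 7 of the 10 genes. AKAP12 (KO against WT, adjusted p = 0.0391), PRKAR1A (OE against WT, 0.0246) and MC2R (KO against OE, 0.0279) were the genes gained in edgeR, and the labels do not say that the numbers pair the libraries. MC2R rests on 22 to 62 counts per library, which limits what can be seen of it, and pathway genes with at most 12 counts in every library were not testable.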
